A study of Sus scrofa with 7 samples.

Results

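The genes described here encode the core parts of the basement membrane: the chains of collagen IV, the chains of laminin, the nidogens and the collagen-binding protein SPARC. Rows of the deposited gene tables were taken when their gene symbol was one of 10 listed symbols, and 8 of these symbols were found among the 29510 rows: COL4A1, COL4A2, LAMA1, LAMB1, LAMC1, NID1, NID2 and SPARC. LAMA5 was not analysed here. HSPG2, the gene of perlecan, matched no row by symbol, and 5 rows without a symbol whose description names its protein are given apart from the results below. RNA was sequenced from 3 lines of porcine extra-embryonic endoderm cells (pXEN), 2 lines of porcine naïve-like embryonic stem cells (nESC) and 2 lines of porcine primed embryonic stem cells (pESC), with 1 library per line. The pXEN lines 1, 2 and 3, at passages 26, 26 and 23, came from the inner cell mass of parthenogenetic blastocysts and were grown on mouse embryonic fibroblasts in a serum-containing medium with LIF, CHIR99021, dimethindene, minocycline and Y27632. The nESC lines 1 and 2, at passages 21 and 22, came from the inner cell mass and were grown on mouse embryonic fibroblasts with FGF, LIF, PD0325901, CHIR99021, SB431542 and doxycycline. The pESC lines 1 and 2, both at passage 20, were converted from nESCs and were grown on STO cells, a mouse fibroblast line, with activin A, FGF, EGF and LIF. Medium, origin of the lines and, for the pESC lines, feeder cells therefore changed together with cell type and cannot be told apart from it.

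A basement membrane is a thin sheet of matrix under an epithelium, and it is built from a laminin network and a collagen IV network that nidogens and perlecan link to each other. A laminin molecule is a trimer of an alpha, a beta and a gamma chain, and the trimer of the LAMA1, LAMB1 and LAMC1 products is the laminin of the early embryo. The products of COL4A1 and COL4A2 assemble into the collagen IV molecule found in nearly every basement membrane. In rodents, parietal endoderm secretes these proteins in bulk and lays down the thick membrane on the inner side of the trophoblast, while visceral endoderm and the epiblast rest on a thinner one.

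Each library held between 10408164 and 12995720 reads counted on genes, so that 3 counts, the floor used here, corresponded to 0.231 to 0.288 CPM (counts scaled by library size alone), which covers counting error only. The label of the pXEN lines was checked against 8 markers of extra-embryonic endoderm. Their summed level was 876 to 1109 FPKM (fragments scaled by gene length and library size, as deposited) in the pXEN lines, 12.8 and 12.9 FPKM in the nESC lines and 17.3 and 19.3 FPKM in the pESC lines, with SOX7 at or near 0 in every library. Among the pXEN lines, line 2 stood apart. It held 38 counts on chromosome Y against 0 to 11 in the other libraries, 250 summed FPKM of 9 fibroblast markers against 17.9 and 21.0 in lines 1 and 3, and lower levels of chromosome 13 genes, whose log2 level was 0.38 higher (median of 990 genes) in lines 1 and 3. The results are therefore also given without line 2. Of the 8 genes, 6 lie on other chromosomes, and LAMA1 and SPARC lie on unplaced scaffolds.

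Collagen IV was the most abundant part in the pXEN lines. COL4A1, which encodes the alpha-1 chain, was at 1267, 1026 and 1068 FPKM in pXEN lines 1, 2 and 3, at 1.32 and 0.824 FPKM in the nESC lines and at 57.7 and 60.4 FPKM in the pESC lines. The cell types did not overlap, and the pESC lines lay between the others. In bulk RNA, fewer cells that make a transcript and less of it per cell cannot be told apart. Among all 29510 rows ordered by FPKM, COL4A1 ranked 57, 84 and 68 in the pXEN lines. It was 1038-fold higher in pXEN than in nESC lines (log2 fold change 10.02, standard error 0.26, adjusted p = 3.22e-07). This and every other adjusted p of a gene comes from the quasi-likelihood test of edgeR, with the adjustment of Benjamini and Hochberg over all genes tested. Against the pESC lines it was 19.1-fold higher (log2 fold change 4.25, standard error 0.20, adjusted p = 3.93e-06). The pESC lines exceeded the nESC lines 54.4-fold (adjusted p = 4.98e-06).

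COL4A2, which encodes the alpha-2 chain, was at 857, 813 and 793 FPKM in the pXEN lines, at 0.806 and 0.734 FPKM in the nESC lines and at 69.4 and 69.3 FPKM in the pESC lines. Again no cell type overlapped another. Its log2 fold change in pXEN lines was 10.05 against nESC lines (standard error 0.15, adjusted p = 7.74e-08) and 3.57 against pESC lines (standard error 0.11, adjusted p = 1.18e-06), and it was 6.48 between pESC and nESC lines (standard error 0.14, adjusted p = 9.27e-07). The nESC levels rested on 78 and 47 counts for COL4A1 and on 57 and 50 counts for COL4A2. In the build Sscrofa10.2 of the tables, COL4A1 lies on the minus strand of chromosome 11 from 84373663 to 84432619 and COL4A2 on the plus strand from 84613773 to 84675898. The genes thus point away from each other, with 181153 bases and 0 other entries of the tables between them.

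**Figure D1:**
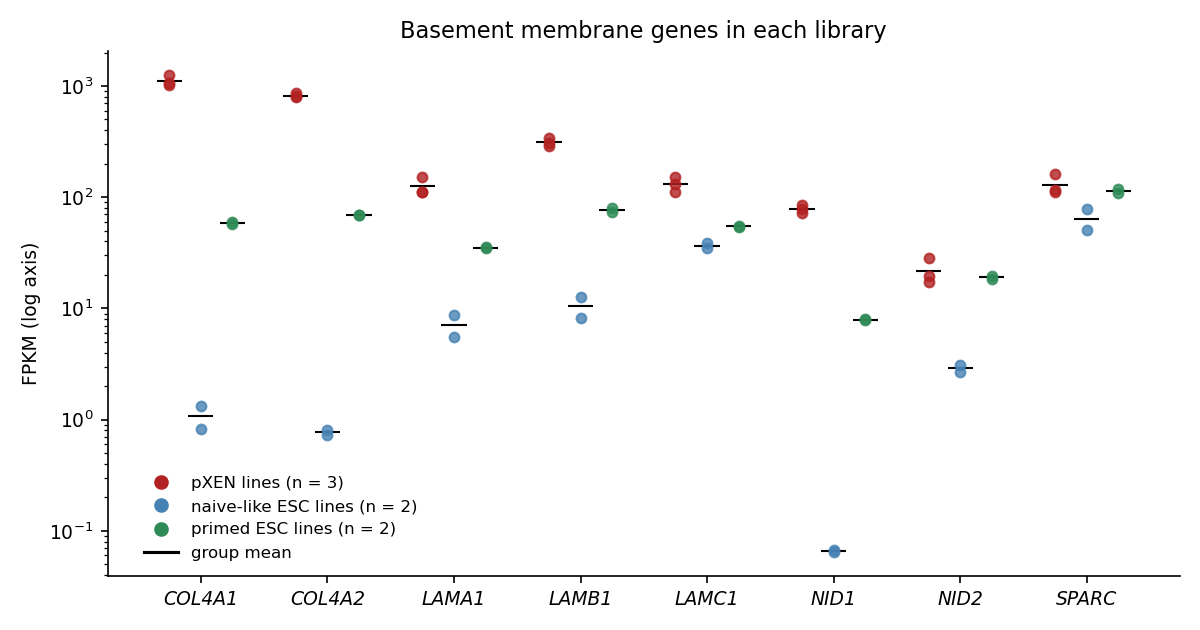
FPKM of the 8 genes in each of the 7 libraries, on a log axis, with 1 point per line and a bar at the mean of each cell type. COL4A1 reached 1267 FPKM in pXEN line 1 and was at 0.824 FPKM in nESC line 2, while SPARC stayed between 50.7 and 162 FPKM in all libraries.

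The laminin chains were also highest in the pXEN lines, to unequal extents. LAMA1, the alpha chain gene, was at 153, 112 and 112 FPKM in the pXEN lines, at 5.52 and 8.66 FPKM in the nESC lines and at 35.4 and 34.6 FPKM in the pESC lines. The lowest pXEN line was above the highest pESC line, and the lowest pESC line above the highest nESC line. Its log2 fold change in pXEN lines was 4.14 against nESC lines (standard error 0.25, adjusted p = 7.17e-06) and 1.85 against pESC lines (standard error 0.21, adjusted p = 0.000281). Between pESC and nESC lines it was 2.29 (standard error 0.24, adjusted p = 0.000392). The row of LAMA1 lies on an unplaced scaffold and holds 1551 bases of gene length, against 6013 for LAMB1 and 5326 for LAMC1, although the alpha chain is the longest of the trimer. The level per length of LAMA1 may therefore stand for part of the gene, which was not tested.

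LAMB1, the beta chain gene on chromosome 9 (118439608 to 118514521, minus strand), was at 307, 344 and 287 FPKM in the pXEN lines, at 8.14 and 12.8 FPKM in the nESC lines and at 74.2 and 80.3 FPKM in the pESC lines. No cell type overlapped another. It was 29.8-fold higher in pXEN than in nESC lines (log2 fold change 4.90, standard error 0.23, adjusted p = 2.65e-06) and 4.07-fold higher than in pESC lines (log2 fold change 2.03, standard error 0.20, adjusted p = 0.000122). The pESC lines exceeded the nESC lines 7.32-fold (adjusted p = 8.07e-05).

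LAMC1, the gamma chain gene on chromosome 9 (136548464 to 136668804, minus strand), had the most even levels of these 3 laminin chains. It was at 151, 111 and 130 FPKM in the pXEN lines, at 34.9 and 38.5 FPKM in the nESC lines and at 55.5 and 53.7 FPKM in the pESC lines. The order of the cell types was the same as for the other chains, without overlap, but the steps were smaller. LAMC1 was 3.55-fold higher in pXEN than in nESC lines (log2 fold change 1.83, standard error 0.15, adjusted p = 2.90e-05) and 2.41-fold higher than in pESC lines (log2 fold change 1.27, standard error 0.14, adjusted p = 0.000242). The difference between pESC and nESC lines was 0.56 on the log2 scale (standard error 0.15, adjusted p = 0.0239), and it was not called when any nESC or pESC line was left out (0.49 to 0.64 on the log2 scale, adjusted p = 0.0666 to 0.140), with the remaining line assumed to vary like the other cell types.

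The nidogens, which bind laminin and collagen IV, differed from each other. NID1, on chromosome 14 (59336243 to 59454745, plus strand), was at 77.8, 85.8 and 72.5 FPKM in the pXEN lines and at 7.91 and 7.98 FPKM in the pESC lines. The nESC lines had 1 count each, which is under the floor. The 3 pXEN lines lay close together and apart from the pESC lines, which they exceeded 9.96-fold (3.32 ± 0.14 on the log2 scale, standard error, adjusted p = 2.93e-06). Against the nESC lines, the ratio of counts, scaled by the library totals behind the deposited FPKM, was 1195 for the pXEN lines (95% interval from counting error 331 to 9874) and 120.5 for the pESC lines (33.0 to 999.8). Both of these comparisons were called (adjusted p = 3.22e-07 and 7.04e-06). The row that carries the symbol holds 1272 bases of gene length, and 2 further rows without a symbol are described as nidogen-1, 1 of them inside the interval of NID1 on the same strand. Reads shared between the overlapping rows may have been split or left out, since the counting options are not given in the sources used here.

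NID2, on chromosome 1 (201971913 to 202044999, minus strand), was at 19.8, 28.1 and 17.2 FPKM in the pXEN lines, at 3.09 and 2.69 FPKM in the nESC lines and at 18.4 and 19.7 FPKM in the pESC lines. The pXEN and pESC lines overlapped, and both lay above the nESC lines. The log2 fold change was 2.90 between pXEN and nESC lines (standard error 0.24, adjusted p = 3.28e-05) and 2.71 between pESC and nESC lines (standard error 0.25, adjusted p = 0.000184). Between pXEN and pESC lines it was 0.20, with a 95% interval of −0.28 to 0.67 (adjusted p = 0.461), so a difference in NID2 beyond the spread between lines was not shown. Without pXEN line 2, which had the highest level, it was −0.039 (adjusted p = 0.797).

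SPARC, a secreted protein that binds collagen IV and helps its passage out of the cell, was high in every library. It was at 115, 162 and 112 FPKM in the pXEN lines, at 50.7 and 77.9 FPKM in the nESC lines and at 109.9 and 118 FPKM in the pESC lines. The pXEN and pESC lines overlapped, and the nESC lines lay below both. The log2 fold change was 0.20 between pXEN and pESC lines, with a 95% interval of −0.31 to 0.71 (adjusted p = 0.497), and 1.01 between pXEN and nESC lines (standard error 0.23, adjusted p = 0.00639). The latter was 0.72 and not called when nESC line 1 was left out (adjusted p = 0.0555). Between pESC and nESC lines it was 0.81 (standard error 0.24, adjusted p = 0.0365). That call was lost without nESC line 1 (0.53, adjusted p = 0.210), without pESC line 1 (0.87, adjusted p = 0.112) or without pESC line 2 (0.76, adjusted p = 0.156), and when a second row described as SPARC was added to the first, an alternative chosen after the data were seen (0.70, adjusted p = 0.0545).

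Counted together, all 8 genes found were higher in pXEN than in nESC lines, and none was lower. Of all 17447 genes tested, 28.3% were higher and 26.2% lower in this comparison. The median log2 fold change was 4.52 over the 8 genes and 0 over all genes tested. Against the pESC lines, 6 of the 8 genes were higher, none was lower, and NID2 and SPARC were not called. Among all genes tested, 23.9% were higher and 24.4% lower in pXEN than in pESC lines, and the median log2 fold change was 1.94 over the 8 genes and −0.012 over all genes. In pESC against nESC lines all 8 genes were higher, where 19.0% of all genes were higher and 13.3% lower, with a median of 2.79 over the 8 genes and 0.012 over all genes. These comparisons share libraries with each other and are therefore not independent. The same numbers of genes were called in each direction without pXEN line 2, where the shares of all genes were 30.2% higher and 29.8% lower in pXEN than in nESC lines, 26.5% and 28.9% in pXEN against pESC lines, and 24.4% and 19.4% in pESC against nESC lines. Without pXEN line 2, the log2 fold changes of the 6 genes called against the pESC lines were 4.31 for COL4A1, 3.58 for COL4A2, 1.92 for LAMA1, 1.95 for LAMB1, 1.37 for LAMC1 and 3.25 for NID1.

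**Figure D2:**
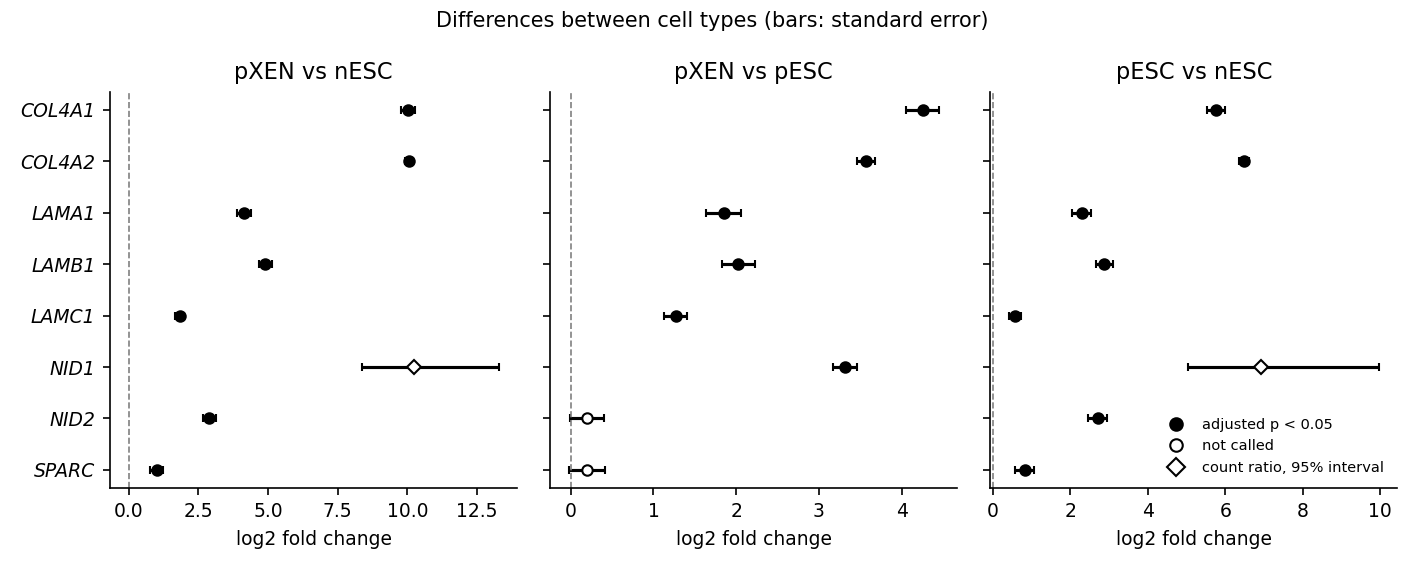
Log2 fold changes of the 8 genes in the 3 comparisons (first cell type against second), with standard errors as bars and open circles for genes not called. Diamonds show NID1 against nESC lines as a ratio of counts with its 95% counting interval, since the nESC lines held 2 counts in all. NID2 and SPARC, both at 0.20 between pXEN and pESC lines, were the genes not called.

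The order of the levels per length differed between the cell types. In the pXEN lines the order of mean FPKM was COL4A1 (1120.1 ± 129, SD, n = 3), COL4A2 (821 ± 32.6), LAMB1 (313 ± 29.1), LAMC1 (131 ± 20.4), SPARC (129.9 ± 27.8), LAMA1 (125 ± 23.9), NID1 (78.7 ± 6.73) and NID2 (21.7 ± 5.70). LAMC1, SPARC and LAMA1 overlapped between lines, and every other neighbouring pair was separate in all 3 lines. In the nESC lines SPARC (64.3 ± 19.2 FPKM, SD, n = 2) came first and LAMC1 (36.7 ± 2.54) next, both separate from LAMB1 and LAMA1, which overlapped. COL4A1, COL4A2 and NID1 came last there. In the pESC lines SPARC (114 ± 5.90 FPKM, SD, n = 2) was again first, followed by LAMB1 (77.3 ± 4.38), COL4A2 (69.4 ± 0.0782), COL4A1 (59.0 ± 1.95), LAMC1 (54.6 ± 1.31) and LAMA1 (35.0 ± 0.582). The nidogens were the lowest in the pESC lines, and no neighbouring pair overlapped between the 2 lines.

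Taken as shares of their summed FPKM, the 8 genes made up a different mixture in each cell type. Collagen IV held 72.0, 68.6 and 71.8% of the sum in the pXEN lines, 2.03 and 1.10% in the nESC lines and 29.7 and 29.2% in the pESC lines. The share of the 3 laminin chains was 20.4 to 21.1% in the pXEN lines, 42.1 and 46.4% in the nESC lines and 37.9 and 38.5% in the pESC lines. SPARC had 48.5 and 54.8% of the sum in the nESC lines, 25.7 and 26.6% in the pESC lines and 3.91 to 6.04% in the pXEN lines. The sum itself was 2592 to 2948 FPKM in the pXEN lines, 104.5 and 142 FPKM in the nESC lines and 428 and 444 FPKM in the pESC lines. In counts, the 8 genes took 1.19 to 1.36% of all reads of a pXEN library, 0.0347 and 0.0434% of an nESC library and 0.181% of each pESC library.

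**Figure D3:**
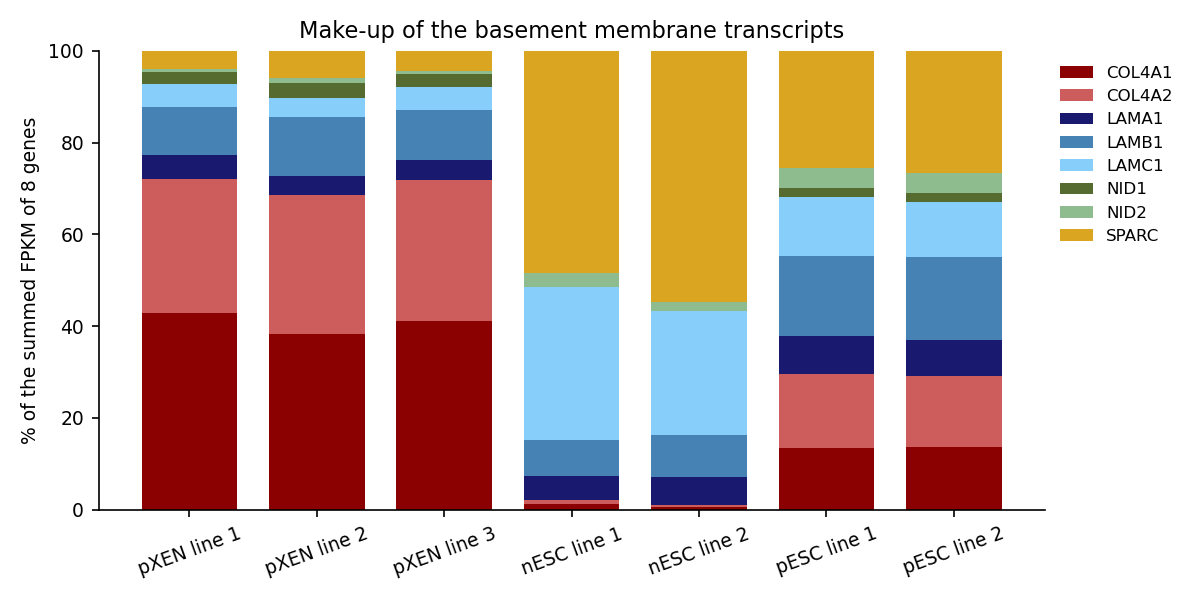
Share of each gene in the summed FPKM of the 8 genes, in percent, for each of the 7 libraries. COL4A1 and COL4A2 held 68.6 to 72.0% of the bar in the pXEN lines and 1.10 to 2.03% in the nESC lines, where SPARC and LAMC1 filled most of it.

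The balance between the parts was compared within each library, as the log2 ratio of FPKM + 0.1 of a pair of genes. Scaling between libraries cancels in it, except where a level is near the added 0.1, as for NID1 in the nESC lines. The difference between the 3 cell types was tested over all 210 ways to give the 7 libraries the labels of 3 pXEN, 2 nESC and 2 pESC lines (exact permutation test, smallest p possible 0.00952), with Benjamini-Hochberg adjustment over the 7 ratios whose genes were both found. For COL4A1 over COL4A2 the log2 ratio was 0.56, 0.33 and 0.43 in the pXEN lines, 0.65 and 0.15 in the nESC lines and −0.27 and −0.20 in the pESC lines. The pXEN and nESC lines overlapped and the pESC lines were lower, and the ratio did not pass the test (exact permutation test, p = 0.105, adjusted p = 0.105). In linear terms, the geometric mean ratio of the collagen IV chains was 1.36 in pXEN, 1.32 in nESC and 0.851 in pESC lines, while the level of COL4A1 alone differed 1038-fold between pXEN and nESC lines. With a pseudocount of 1, which weighs on the low nESC levels, the ratio passed (exact permutation test, adjusted p = 0.0286), as it did without nESC line 1 (exact permutation test, adjusted p = 0.0167) or without nESC line 2 (exact permutation test, adjusted p = 0.0333), where the spread comes from the pXEN and pESC lines alone.

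The laminin chains were not in the same balance in the 3 cell types. LAMB1 over LAMC1 had a log2 ratio of 1.02, 1.64 and 1.14 in the pXEN lines, −2.09 and −1.58 in the nESC lines and 0.42 and 0.58 in the pESC lines, which is 2.40, 0.280 and 1.41 as geometric means of the linear ratio. LAMC1 thus exceeded LAMB1 in both nESC lines and in no other library. LAMB2, another beta chain gene, does not enter this ratio. It was at 15.3 and 20.7 FPKM in the nESC lines, above LAMB1 there, and below LAMB1 in every other library. LAMA1 over LAMC1 was 0.02, 0.02 and −0.23 in the pXEN lines, −2.64 and −2.14 in the nESC lines and −0.65 and −0.63 in the pESC lines. Per length, the LAMA1 row was close to LAMC1 in the pXEN lines and lower than LAMC1 in the others. Since the row may stand for part of LAMA1, the shift between cell types can be read from it, but not equality of the chains. Both laminin ratios separated the cell types without overlap (exact permutation test, p = 0.00952, the smallest possible, adjusted p = 0.0111 each).

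The other 4 ratios gave the same p and adjusted p. The ratios share genes with each other, LAMC1 above all, and follow from the levels of the single genes given above. How many pairs of other genes would separate the cell types as fully was not tested. NID1 over NID2 had geometric mean ratios of 3.69 in pXEN, 0.0556 in nESC and 0.420 in pESC lines, so that NID1 was the more abundant nidogen in the pXEN lines only among these 7 libraries. NID1 over LAMC1 was 0.606, 0.00452 and 0.147. Both ratios rest on 1 count of NID1 in each nESC line, where the pseudocount sets their size. COL4A2 over LAMC1 was 6.32 in pXEN, 0.0237 in nESC and 1.27 in pESC lines, and SPARC over COL4A2 was 0.156, 72.4 and 1.64. Collagen IV thus exceeded the gamma chain and SPARC in the pXEN lines, lay far below both in the nESC lines and lay near them in the pESC lines. Without any one pXEN line only 90 assignments remain, and the smallest p possible is 0.0667, so the test could not pass. The ratios of the remaining lines are those given above.

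**Figure D4:**
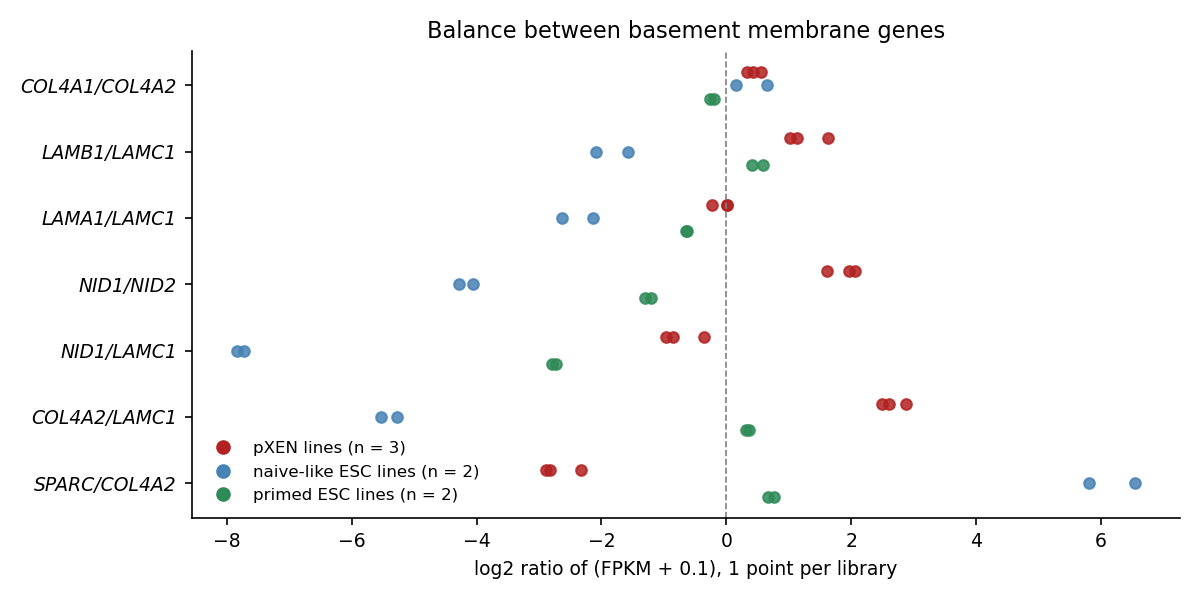
Log2 ratio of FPKM + 0.1 for 7 pairs of genes, with 1 point per library and the cell type by colour. COL4A1/COL4A2 was the only pair in which the pXEN lines (0.33 to 0.56) overlapped another cell type, while COL4A2/LAMC1 ran from −5.53 in nESC line 2 to 2.88 in pXEN line 2.

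The spread among the pXEN lines differed between genes. The largest over the smallest level among the 3 lines was 1.08 for COL4A2, 1.18 for NID1, 1.20 for LAMB1, 1.23 for COL4A1, 1.37 for LAMA1 and LAMC1, 1.44 for SPARC and 1.63 for NID2. Line 2 had the highest level of LAMB1, NID1, NID2 and SPARC and the lowest of COL4A1 and LAMC1. The same line held the fibroblast markers COL1A1 at 144 FPKM, COL3A1 at 77.5 FPKM and COL1A2 at 21.1 FPKM, against 14.8 to 16.1, 0.426 to 3.87 and 0.259 to 0.482 FPKM in lines 1 and 3, while DCN was at 1.40 FPKM there. In the pESC lines the 9 fibroblast markers summed to 67.9 and 98.4 FPKM, with DCN at 18.3 and 38.8 FPKM, and in the nESC lines to 35.5 and 43.7 FPKM, with DCN and LUM at 0. Most of that nESC sum was TWIST1 (24.2 and 28.1 FPKM), which was at 0 to 0.201 FPKM in the pXEN lines, line 2 included, so that markers of the list went opposite ways. SPARC and NID2 are also made by fibroblasts, and the part of other cells in these levels was not tested.

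Markers of the endoderm derivatives were mixed in the pXEN lines. Of 8 parietal endoderm markers, 7 were found, and their summed level was 800 to 1464 FPKM in the pXEN lines, 786 and 906 FPKM in the nESC lines and 1080 and 1201 FPKM in the pESC lines, so that the sums overlapped. KRT19, a keratin, made up most of the pXEN sum (723, 1239.6 and 592 FPKM), and PTH1R, the receptor of parathyroid hormone-related protein, was at 109, 81.8 and 104.7 FPKM against 0.125 to 0.470 FPKM in the ESC lines. VIM was at 9.36 to 58.6 FPKM in the pXEN lines, highest in line 2, and at 684 to 920 FPKM in the ESC lines, and THBD was at or near 0 in the pXEN lines. The 8 visceral endoderm markers summed to 8432 to 9192 FPKM in the pXEN lines, nearly all of it APOE, against 3.13 and 4.51 FPKM in nESC and 115 and 127 FPKM in pESC lines, with CUBN at or near 0 throughout. Line 2 stood apart in AFP (176 FPKM, against 3.06 and 1.69 FPKM in lines 1 and 3) and TTR (24.5 FPKM, against 6.49 and 1.64 FPKM). Of 6 markers of pluripotent cells, SOX2 was at 102 to 154 FPKM in the ESC lines and at 0, 1.98 and 0 FPKM in the pXEN lines, whereas POU5F1 was listed at or near 0 in every library and NANOG was highest in the pXEN lines (4.50 to 15.5 FPKM). The other markers of pluripotent cells separated the ESC types, with UTF1 at 136 and 142 FPKM in the pESC lines and 0 and 0.0803 FPKM in the nESC lines, ESRRB at 36.6 and 37.7 against 1.18 and 0.801 FPKM, and DNMT3B at 264 and 242 against 32.1 and 38.8 FPKM. DNMT3B was at 19.6 to 40.3 FPKM in the pXEN lines, which overlapped the nESC lines.

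The genes whose pattern over the 7 libraries was most like that of a gene described here were sought among 4357 genes with a symbol and a mean log2 CPM of at least 5, by the root mean square difference of log2(FPKM + 1) after centring. For COL4A2 the nearest was COL4A1 (0.296), followed by TACSTD1 (0.403) and S100A16 (0.433). LAMB1 was followed by SLC2A1 (0.212), PKP2 (0.256) and ST14 (0.299), and SPARC by TMEM263 (0.130), STMN1 (0.138) and RTN4 (0.141). Among the 8 genes themselves, LAMA1 and LAMB1 were each other's nearest (0.385), as were LAMC1 and SPARC (0.556). These values describe 7 libraries of 3 cell types, and any gene with the same 3 levels would score as near.

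Other genes of the basement membrane changed in both directions. Of 27 listed, 25 were found and 21 tested. Against nESC lines 14 were higher in pXEN lines and 2 lower (66.7% and 9.52% of those tested, against 28.3% and 26.2% of all genes). Against pESC lines 9 were higher and 3 lower (42.9% and 14.3%, against 23.9% and 24.4%), and in pESC against nESC lines 10 were higher and 1 lower (47.6% and 4.76%, against 19.0% and 13.3%). Without pXEN line 2 these counts were 14 and 2, 11 and 5, and 15 and 1. Calls also rose over all genes without that line, from 19.0% higher and 13.3% lower to 24.4% and 19.4% between the ESC types. The median log2 fold changes were 4.75, 1.85 and 3.20, or 4.52, 1.85 and 2.17 with genes at or under the floor in a cell type put at the bound that 3 counts per library allow.

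COL18A1, the gene of collagen XVIII and its endostatin fragment, was at 1939, 1070.4 and 1751 FPKM in the pXEN lines, at 7.46 and 11.2 FPKM in the nESC lines and at 263 and 319 FPKM in the pESC lines. It was 169-fold higher in pXEN than in nESC lines (adjusted p = 3.39e-06) and 5.47-fold higher than in pESC lines (adjusted p = 0.000270), and it lies on chromosome 13. FBLN1, the gene of the matrix glycoprotein fibulin-1, was at 514 to 548 FPKM in the pXEN lines, 0.216 and 1.57 FPKM in the nESC lines and 89.8 and 99.0 FPKM in the pESC lines. AGRN, a heparan sulfate proteoglycan, was at 203 to 231 FPKM in the pXEN lines against 7.33 and 8.65 FPKM in nESC and 38.1 and 34.5 FPKM in pESC lines. The log2 fold changes in pXEN lines were 9.23 and 2.51 for FBLN1 (adjusted p = 6.26e-06 and 0.000807, against nESC and pESC lines) and 4.75 and 2.57 for AGRN (adjusted p = 4.58e-07 and 5.49e-06). FBLN2 and EGFLAM, whose product pikachurin binds dystroglycan, were higher than in pESC lines by 3.86 and 4.37 on the log2 scale (adjusted p = 3.50e-05 and 2.86e-05).

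Other laminin chains differed between the cell types. LAMC3, another gamma chain gene, was at 17.4 and 9.77 FPKM in the pESC lines and at or below 0.239 FPKM in all other libraries. It was lower in pXEN than in pESC lines by −6.48 on the log2 scale (adjusted p = 3.26e-05), and the ratio of counts of pESC to nESC lines was 993 (95% counting interval 275 to 8203, adjusted p = 9.18e-05). LAMB3 was low throughout, at 0.0579 to 0.347 FPKM in the pXEN lines and 0.588 and 1.42 FPKM in the pESC lines, and was called lower in pXEN than in pESC lines (adjusted p = 0.0323). LAMB2, the other widely used beta chain gene, was at 12.9 to 32.0 FPKM in pXEN, 15.3 and 20.7 FPKM in nESC and 32.6 and 30.4 FPKM in pESC lines, and was not called in any comparison.

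Among the lesser collagen IV chains, COL4A3 and COL4A4 were at or below 0.373 FPKM in every library. COL4A5 was at 0, 2.18 and 0.0895 FPKM in the pXEN lines and at 0 in both nESC lines. It was at 1.13 and 1.68 FPKM in the pESC lines. COL4A6 was at 21.9, 22.1 and 22.3 FPKM in the pXEN lines, 2.24 and 1.32 FPKM in the nESC lines and 19.9 and 13.2 FPKM in the pESC lines. It was higher in pXEN than in nESC lines (log2 fold change 3.63, adjusted p = 1.94e-05), with 0.43 against pESC lines (95% interval −0.091 to 0.94, adjusted p = 0.153). NTN4, a netrin that binds the laminin gamma chain, went the other way. It was at 32.2 and 33.7 FPKM in the nESC lines, 0.622 to 1.11 FPKM in the pXEN lines and 0.146 and 0.318 FPKM in the pESC lines. Relative to nESC lines this was −5.28 on the log2 scale in pXEN and −7.13 in pESC lines (adjusted p = 2.67e-06 and 1.02e-05). SMOC1, a calcium-binding matrix protein of the SPARC family, was at 7.68 to 11.7 FPKM in the ESC lines and had 2 counts in all 3 pXEN lines together. NTN1 had no count in the nESC lines, and the mean of the pXEN lines was at least 87.9-fold higher by the floor per library (adjusted p = 0.00562), with a bound of 53.9-fold without line 3 and 128-fold without line 2. TINAGL1, a matrix protein related to tubulointerstitial nephritis antigen, also had no count there, and the mean of the pXEN lines (6.47 to 12.2 FPKM) was at least 68.4-fold higher. The pXEN levels of NTN1 were 23.5, 1.87 and 36.7 FPKM, with line 2 the lowest.

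The genes that fold, modify, export and cross-link collagen IV were mostly higher in the pXEN lines. Of 24 listed, 19 were found and all were tested. Against nESC lines 16 were higher and 2 lower (84.2% and 10.5%, against 28.3% and 26.2% of all genes), with a median log2 fold change of 1.28. Against pESC lines 13 were higher and 3 lower (68.4% and 15.8%, against 23.9% and 24.4%), with a median of 1.29. In pESC against nESC lines 6 were higher and 3 lower (31.6% and 15.8%, against 19.0% and 13.3% of all genes), with a median of 0.11. Without pXEN line 2 the counts were 16 and 2, 15 and 3, and 7 and 4.

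SERPINH1, the collagen chaperone HSP47, was at 1137, 1213 and 1097 FPKM in the pXEN lines, 336 and 335 FPKM in the nESC lines and 328 and 338 FPKM in the pESC lines. The ESC types overlapped, and the pXEN lines were 3.42-fold and 3.47-fold higher (adjusted p = 5.22e-06 and 8.41e-06). PLOD2, a lysyl hydroxylase, was at 291, 157 and 319 FPKM in the pXEN lines against 12.7 to 18.7 FPKM in the ESC lines, with log2 fold changes of 4.18 and 3.84 (adjusted p = 2.43e-05 and 5.32e-05), and lies on chromosome 13. LOXL2, which cross-links collagen IV, was at 205, 152 and 189 FPKM in the pXEN lines, 2.66 and 4.14 FPKM in the nESC lines and 32.0 and 36.8 FPKM in the pESC lines, with log2 fold changes of 5.73 and 2.41 (adjusted p = 1.89e-06 and 4.64e-05). PXDN, the peroxidase that makes the sulfilimine bond of collagen IV, had log2 fold changes of 3.44 and 2.27 (adjusted p = 3.28e-06 and 2.68e-05). P3H2, the prolyl 3-hydroxylase of collagen IV, was at 111, 46.6 and 149 FPKM in the pXEN lines, with the lowest level in line 2, against 1.59 and 1.48 FPKM in nESC and 21.9 and 27.6 FPKM in pESC lines (adjusted p = 6.14e-05 and 0.00510).

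The prolyl 4-hydroxylase genes P4HA1 and P4HA2 exceeded the pESC lines by 2.43 and 2.49 on the log2 scale (adjusted p = 2.28e-05 and 2.94e-05), and P4HA2 was lower in pESC than in nESC lines (−1.21, adjusted p = 0.00213), as were PLOD1 (−0.52, adjusted p = 0.0210) and PLOD3 (−0.60, adjusted p = 0.0245). The genes lower in the pXEN lines took part in export or folding and moved little. SAR1B, a GTPase of the secretory coat, had log2 fold changes of −0.67 and −0.45 against nESC and pESC lines (adjusted p = 0.00514 and 0.0330), and TMEM131, a collagen cargo factor, had −0.65 and −0.33 (adjusted p = 0.00189 and 0.0449). FKBP10, a prolyl isomerase of the endoplasmic reticulum, was higher than in nESC lines (0.97, adjusted p = 0.000299) and lower than in pESC lines (−0.41, adjusted p = 0.0180).

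The receptors of laminin and collagen IV were the last group. Of 14 listed, 13 were found and all were tested. In pXEN lines 12 were higher and 0 lower than in nESC lines (92.3% and 0%, against 28.3% and 26.2% of all genes), with a median log2 fold change of 2.41. Against pESC lines 8 were higher and 2 lower (61.5% and 15.4%, against 23.9% and 24.4%), with a median of 0.90. In pESC against nESC lines 11 were higher and 1 lower (84.6% and 7.69%, against 19.0% and 13.3%), with a median of 1.55, or 1.31 with genes at the floor put at their bound. Without pXEN line 2 the counts were 12 and 0, 8 and 3, and 12 and 1. BCAM, a receptor of the laminin alpha-5 chain, was at 293, 235 and 294 FPKM in the pXEN lines, 3.42 and 3.36 FPKM in the nESC lines and 48.8 and 56.0 FPKM in the pESC lines. Its log2 fold changes in pXEN lines were 6.33 and 2.39 (adjusted p = 3.22e-07 and 1.02e-05).

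DDR2, a collagen receptor tyrosine kinase, was at 45.7, 33.6 and 43.0 FPKM in the pXEN lines, 0.146 and 0.243 FPKM in the nESC lines and 13.7 and 15.6 FPKM in the pESC lines, with log2 fold changes of 7.68 and 1.48 in pXEN lines (adjusted p = 8.45e-07 and 0.000257). DDR1, its relative, was at 62.5 to 104.3 FPKM in all libraries, and was slightly lower in pXEN than in pESC lines (−0.30, adjusted p = 0.0496). ITGB1, the beta subunit shared by most laminin and collagen integrins, was at 248, 242 and 247 FPKM in the pXEN lines, 84.6 and 86.5 FPKM in the nESC lines and 156 and 171 FPKM in the pESC lines, without overlap (adjusted p = 9.04e-06 and 0.00115 for pXEN against nESC and pESC lines). Among its partners, ITGA2 was highest in the pXEN lines (10.6 to 19.9 FPKM) and lowest in the pESC lines (2.29 and 2.50 FPKM). ITGA3 was highest in the pESC lines (4.23 and 4.41 FPKM), at 0.544 to 0.957 FPKM in the pXEN lines and at 3 and 0 counts in the nESC lines. ITGA6 was at 5.53 to 10.6 FPKM in pXEN lines and within that range in both pESC lines (−0.22 on the log2 scale, 95% interval −0.79 to 0.35, adjusted p = 0.494).

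**Figure D5:**
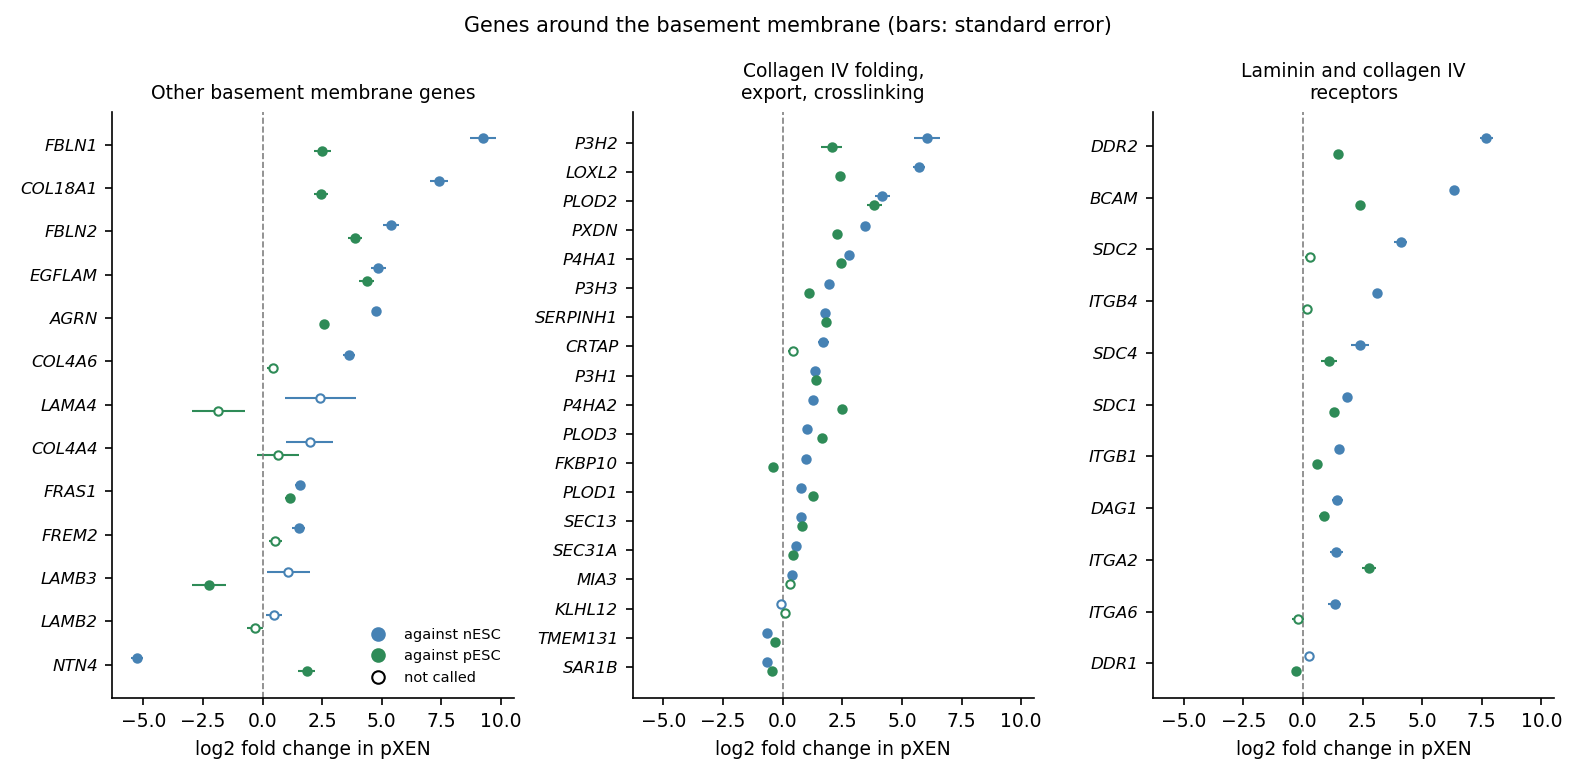
Log2 fold changes of pXEN lines against nESC lines (blue) and against pESC lines (green), with standard errors as bars and open circles for genes not called, for other basement membrane genes, for genes of collagen IV folding, export and cross-linking, and for receptors. Genes with no more than 3 counts in every library of a cell type are left out. FBLN1, P3H2 and DDR2 had the largest values in their panels against nESC lines (9.23, 6.04 and 7.68), and NTN4 had the lowest of all (−5.28).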

How the data were processed

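RNA-seq of 7 porcine libraries was used. Per the labels' processing notes, the authors used HISAT2 2.0.5, featureCounts 1.5.0-p3 and edgeR 3.22.5 with the build Sscrofa10.2, on directional libraries of rRNA-depleted RNA. The deposited counts are reads per gene without normalization, and the deposited FPKM values divide the same counts by gene length and by 1 total per library. How multiply mapped and overlapping reads, strand and reads from mouse feeder cells were treated is not given in the sources used here. Genes were tested on the counts with edgeR 4.0.16 (quasi-likelihood test, TMM normalization, filter on low counts by group, 1 model of all 7 libraries) and called at an adjusted p below 0.05, with Benjamini-Hochberg adjustment. DESeq2 1.42.0 and limma 3.58.1 on log2(FPKM + 0.1) were alternatives. The biological coefficient of variation was 0.223. Nothing says that lines came from separate embryos, so p values measure only the spread between lines. Subunit ratios were tested by exact permutation on the between-group over the within-group sum of squares, which has no direction. The genes and lists were chosen with earlier results of these data known. From each list were named, per comparison, the 3 genes called higher and the 3 called lower with the largest log2 fold change at a mean log2 CPM of at least 3, beside others tested. The 8 genes were taken by the symbol in the tables alone, while genes of the other lists without one were matched by identifier. RefSeq coordinates were not used, since they are of another build. On simulated counts, the edgeR script was tested for recovery of known changes. The counts and medians of the other basement membrane genes include 1 gene whose own values are not reported here.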

Additional observations from a re-analysis of the deposited data

Results flagged for a closer look

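Several rows outside the comparisons, found by their descriptions and not by symbol, held signal in every pXEN line above that of all ESC lines. A second row described as SPARC did not, with 163 FPKM in pXEN line 1 and 165 and 169 FPKM in the pESC lines. The 5 rows described as the perlecan core protein (HSPG2) had mean levels of 152 (ENSSSCG00000003514), 199 (ENSSSCG00000025146), 126 (ENSSSCG00000003517), 93.8 (ENSSSCG00000025626) and 21.6 FPKM (ENSSSCG00000027402) in the pXEN lines. All 5 were lower in each nESC and pESC line. The longest of them, ENSSSCG00000003514, was at 160, 141 and 156 FPKM in the pXEN lines, 11.5 and 15.1 FPKM in the nESC lines and 42.7 and 50.2 FPKM in the pESC lines. The 2 rows described as nidogen-1 without the symbol NID1 had 93.6 (ENSSSCG00000010150) and 59.9 FPKM (ENSSSCG00000021913) in the pXEN lines, with 0 and 1 counts in the nESC lines together. A second row described as agrin (AGRN), on an unplaced scaffold, had 11.5 FPKM in the pXEN lines, above every ESC line.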

How the results depend on the processing

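The number of the 8 genes called was 7 to 9, 5 to 7 and 6 to 8 over all alternatives for pXEN against nESC, pXEN against pESC and pESC against nESC lines, with 9 and 7 reached when rows of the same protein were summed and HSPG2 added (chosen after seeing the data). A minimum of 10 counts in every library, which removes NID1 and tests 8 of the other basement membrane genes, left 7, 5 and 5 of those called, against 16, 12 and 11. Same-numbered lines did not deviate together (correlations of deviations between same-numbered lines −0.00862 to 0.0426). With so few lines this cannot show whether a pESC line shares its origin with an nESC line, and the tests take all lines as independent. With a replicate block, 8, 6 and 8 of the 8 genes were called, as without it. Subunit ratios called were 0 to 7 with each line left out, against 6, with 7 reached without either nESC line and with a pseudocount of 1. They were 0 without any pXEN line, where the smallest p possible is 0.0667. The NID2 log2 fold change between pXEN and pESC lines was −0.039 to 0.34 with each line left out, and changed sign without pXEN line 2. Upper-quartile scaling moved the median of all genes by −0.16 between pXEN and nESC lines (4348 higher and 5621 lower, against 4937 and 4577), and all 8 genes were still called higher. Other values that changed side were those of LAMC1 and SPARC given above.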
